A study of Mus musculus with 23 samples.

Results

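Sites that lay in 3′ untranslated regions (3′ UTRs) of mRNAs numbered 194205 of the 1346716 sites in 6 deposited lists. The lists came from crosslinking experiments on the chromatin architectural protein CTCF. They include controls without UV, whose sites are not UV crosslinks. A site was a member when it lay on chromosome 1 to 19, X or Y, in a 3′ UTR of a protein-coding GENCODE transcript on its own strand, and in no coding sequence on that strand. The members occupied 181685 distinct positions, and another 6717 sites that were both 3′ UTR and coding were left out. In stem cells there were 69307 members with wild-type CTCF (ESC WT), 32477 with a zinc finger mutant (ESC ΔZF1) and 20067 without UV (ESC noXL). In neural progenitors there were 35837 (NPC WT), 22439 (NPC ΔZF1) and 14078 (NPC noXL).

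The series used iCLIP2, in which UV light links a protein to RNA and reverse transcription stops beside the linked nucleotide. Mouse E14 embryonic stem cells (ESCs) carried endogenous CTCF with an mAID-eGFP degron, OsTIR1(F74G) at Rosa26, and a doxycycline-inducible Flag-Halo-CTCF at Tigre that was either wild type (WT) or lacked RNA-binding zinc finger 1 (ΔZF1). Each rescue line was a single clone, and all cells, controls included, received 1 µM 5-Ph-IAA and 1 µg/mL doxycycline for 24 h, so that the rescue protein replaced the endogenous one. Neural progenitor cells (NPCs) were the same lines after 2 days of differentiation, and the noXL controls came from WT rescue cells that received no UV, whereas the other cells received 400 mJ/cm2. Nuclear lysates were immunoprecipitated with anti-Flag. Each group had 4 libraries except NPC WT, which had 3, and the authors merged the libraries of a group before calling sites, so the files used here hold 1 list per group, values have no replicate error, and no test between groups could be made from them. Ranges in parentheses are 95% intervals that cover counting error only, and the read depth behind the lists is unknown.

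The 3′ UTR is the stretch of an mRNA between the stop codon and the poly(A) tail. It carries binding sites for proteins and microRNAs that set the stability, translation and location of the message, and near its end a hexamer, most often AAUAAA, directs cleavage and polyadenylation. CTCF is known for holding chromatin loops on DNA, and it also contacts RNA through zinc fingers outside its core DNA-binding ones.

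The base under the site separated lists with UV from lists without it, and positions that recurred between lists are shown first. Below, each line gives 25 nt of the mRNA strand from the mm10 genome with the called site in capitals. The first 3 positions were called in both WT lists, had no noXL site within 5 nt, and were among the highest by their lower score rank of the positions of this kind outside the set that all 4 UV lists share. They lay in 3′ UTRs of Npm1 (nucleophosmin, a nucleolar protein), Calr (calreticulin, an endoplasmic reticulum chaperone) and Actb (beta-actin).
Npm1, chr11:33152586-33152610, minus strand: uguauggaauguUaugauaggacau
Calr, chr8:84842185-84842209, minus strand: cccuuucucccuUgcccccaggacu
Actb, chr5:142903231-142903255, minus strand: ccucccuuuuuuUuguccccccaac

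Of 3669 positions called in both WT lists with no noXL site within 5 nt, 92.4% (91.5 to 93.2) were uridines. They lay in 2095 genes. With positions near a noXL site kept there were 4350, of which 86.7% (85.6 to 87.7) were uridines. Positions called in all 4 UV lists numbered 136, of which 46.3% were uridines and 46.3% guanosines. The 61 of these with no noXL site within 5 nt lay in 60 genes, and 88.5% (78.2 to 94.3) were uridines. The highest ranked of these included Slc7a5, an amino acid transporter, Cnbp, a nucleic acid-binding zinc finger protein, and Tkt, the pentose phosphate enzyme transketolase, where the called base was a guanosine.
Slc7a5, chr8:121882575-121882599, minus strand: gccacagcucuuUucccaaggcugu
Cnbp, chr6:87843250-87843274, minus strand: uguaaucaguuuUuaaaagucagau
Tkt, chr14:30573524-30573548, plus strand: gaugcuggguggGugaacuacacau

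Only 42 positions, in 38 genes, were called in all 6 lists, the noXL lists included, and these were of another kind. Guanosine was the called base at 38 of them, 90.5% (77.9 to 96.2), and uridine at 1. Among the highest ranked were those in Ddx6 (an RNA helicase of mRNA decay), Setd5 and Ntn3 (a netrin), and the Ddx6 and Setd5 sites follow runs of guanosines. They are shown because the same sequence recurs without UV.
Ddx6, chr9:44639734-44639758, plus strand: gugggaggggagGguacuguguccc
Setd5, chr6:113153287-113153311, plus strand: gggggaggguggGgggaggggggac
Ntn3, chr17:24205641-24205665, minus strand: caugcucccgacUuggccgccgccg

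The pattern GGNGG, searched on the mRNA strand only in the 6 nt that end at the site and chosen after these windows were seen, was present at 29 of the 42 positions, 69.0% (54.0 to 80.9). It was present at 0.899% of the 3669 positions in both WT lists at 0.580% of positions in 1 list, and at 3 of the 61 positions of all 4 UV lists with no noXL site near them, 4.92% (1.69 to 13.5). Across whole lists it was rare, at 1.95% of ESC noXL and 1.79% of NPC noXL sites, 2.47 and 2.22 times its share over all positions of the same 3′ UTRs (0.788% and 0.807%). For WT it was at 1.02% (ESC) and 1.06% (NPC) of sites, 1.34 and 1.31 times the share over all positions. For ΔZF1 it was at 1.68% and 0.909%, 2.09 and 1.19 times that share. Sites with this pattern had median score ranks of 81.3%, 85.4% and 75.4% in the WT, ΔZF1 and noXL lists of ESCs, against 49.0%, 45.7% and 45.9% for all their 3′ UTR sites. In NPCs these ranks were 72.9%, 61.7% and 79.9%, against 47.3%, 48.2% and 45.2%.

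Over all members, uridine was the called base at 71.1% (70.7 to 71.4) of ESC WT sites, and this share was 58.5% (57.9 to 58.99) for the ΔZF1 list and 31.3% (30.7 to 32.0) for the noXL list of these cells. In NPCs it was 74.0% (73.5 to 74.4) with WT, 66.4% (65.8 to 67.0) with ΔZF1 and 30.2% (29.45 to 31.0) without UV. The 3′ UTRs that held the sites were themselves 30.2% to 30.6% uridine, so uridine in the noXL lists lay within about 1 percentage point of the UTRs and in the UV lists well above them. The other bases of the noXL lists departed from the UTRs, with adenosine at 29.6% against 26.0% in ESC noXL, and cytidine at 27.9% against 21.6% and guanosine at 15.7% against 22.3% in NPC noXL. WT exceeded ΔZF1 by 12.6 percentage points (11.997 to 13.26) in ESCs and by 7.53 (6.77 to 8.30) in NPCs. Uridine was less frequent at coding sites of the same lists, at 66.4% in NPC WT and 47.8% in ESC ΔZF1.

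**Figure D1:**
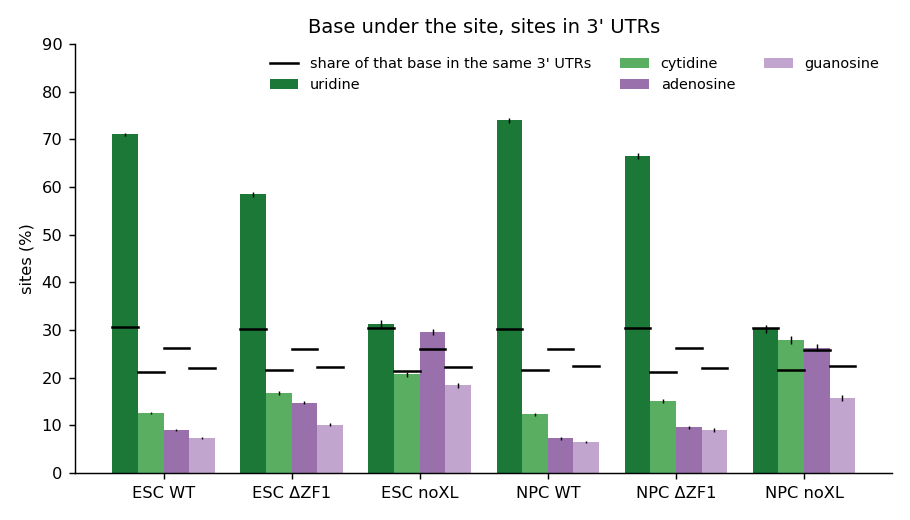
Percent of 3′ UTR sites on each base in the 6 lists, with 95% Wilson intervals as error bars, and black lines at the share of that base in the same 3′ UTRs, weighted by sites. Uridine bars stand at 71.1% and 74.0% in the WT lists and at the black line, near 30%, in the noXL lists.

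The excess of uridine in the UV lists reached beyond the called base. Every list with this excess came from cells that received UV, and the part of UV itself in it was not tested. One nucleotide upstream, 60.1% of ESC WT sites, 50.1% of ESC ΔZF1 and 29.7% of ESC noXL sites had a uridine. The NPC WT, ΔZF1 and noXL values were 62.6%, 52.9% and 30.6%. A run of 5 uridines centred on the site was present at 4.28% of ESC WT sites against 0.727% of all positions in the same UTRs, 5.88 times as often. The same ratio was 5.61 for NPC WT, 3.63 and 3.62 for the ΔZF1 lists of ESCs and NPCs, and 0.777 and 0.706 for their noXL lists. AUUUA, the core of AU-rich elements, was within 10 nt of 4.45% of ESC WT sites, 1.41 times its share over all positions. UGUA, part of the Pumilio and CFIm recognition sequences, was within 10 nt of 10.8% of ESC WT sites, 1.04 times its share. The polyadenylation hexamer AAUAAA was less frequent near sites than over all positions in every list, from 0.294 times in NPC WT to 0.684 times in ESC noXL. These comparisons with all positions were not matched for the base at the site or the distance to the transcript end.

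One nucleotide downstream, uridine was at 42.3%, 36.1% and 25.7% of sites in the WT, ΔZF1 and noXL lists of ESCs and at 39.7%, 34.8% and 25.2% in those of NPCs. At 5 nt downstream, uridine fell to between 20.7% and 24.5% in all 6 lists, and adenosine was the most frequent base at 4 nt downstream in every list, noXL included.

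**Figure D2:**
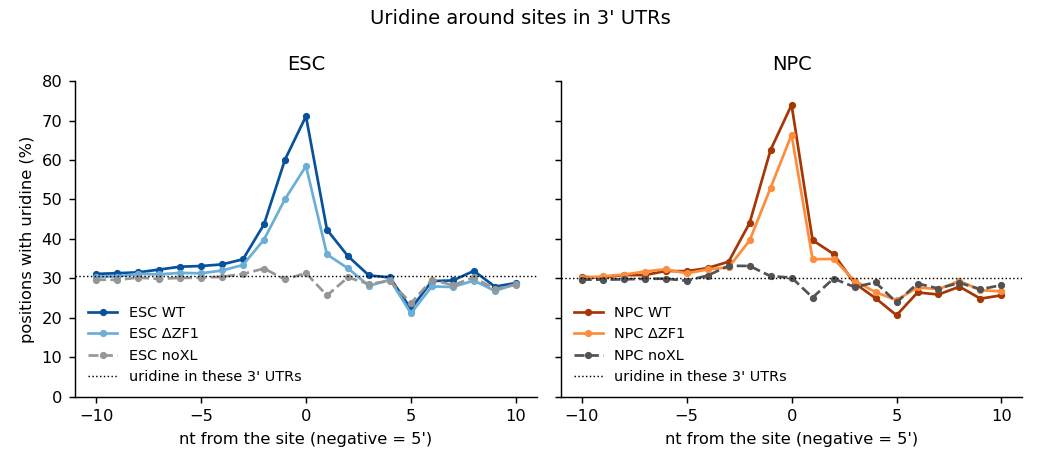
Percent of positions with uridine from 10 nt upstream to 10 nt downstream of 3′ UTR sites, with UV lists as solid and noXL as dashed lines and the uridine share of the UTRs of each WT list dotted. WT lists peak at the site at 71.1% (ESC) and 74.0% (NPC), ΔZF1 lists peak lower, noXL lists have no peak at the site, and all 6 lists dip to between 20.7% and 24.5% at 5 nt downstream.

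By number, ESC WT had 2.13 times (2.11 to 2.16) as many 3′ UTR sites as ESC ΔZF1, and NPC WT 1.60 times (1.57 to 1.62) as many as NPC ΔZF1. Divided by the number of merged libraries the ratio was 2.13 in both cell types, since NPC WT merges 3 libraries and the others 4. That division assumes that sites grow in proportion to libraries, which was not tested. At or above the median score the undivided ratios were 2.21 in ESCs and 1.16 in NPCs. Over all sites of the lists the ratios were 1.95 and 1.51, so the 3′ UTR share of a list was higher in WT, at 15.4% against 14.0% in ESCs and 15.0% against 14.2% in NPCs, and lowest without UV at 12.6% and 13.1%. Split by base, WT over ΔZF1 was 2.60 (2.55 to 2.64) at uridines and 1.49 (1.45 to 1.52) at the other bases in ESCs, and 1.78 (1.74 to 1.81) and 1.24 (1.20 to 1.28) in NPCs.

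Against noXL the split by base was wider. ESC WT had 7.83 times (7.63 to 8.04) as many uridine sites as ESC noXL and 1.45 times (1.42 to 1.49) as many at other bases, and NPC WT had 6.23 (6.04 to 6.44) and 0.950 times (0.923 to 0.977). ΔZF1 lists had 3.02 times (ESC) and 3.51 times (NPC) as many uridine sites as noXL, and 0.979 and 0.767 times as many at other bases. Site numbers depend on unknown depth and, for NPC WT, on 3 merged libraries against 4. No noXL control came from ΔZF1 cells.

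Chromosome 11 stood apart in the WT to ΔZF1 comparison. Its 3′ UTR sites gave a WT over ΔZF1 ratio of 2.58 (2.47 to 2.69) in ESCs and 2.08 (1.97 to 2.20) in NPCs, above the highest ratio of any other chromosome, 2.34 and 1.85. Its share of 3′ UTR sites was 10.9% with WT, 11.4% without UV and 9.01% with ΔZF1 for ESCs, and 10.7%, 10.3% and 8.21% in the same order for NPCs. The part of this in results on single chromosome 11 genes was not tested.

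Neighbouring calls were most common in WT. In ESC WT 69.5% of 3′ UTR sites had no other site within 8 nt, against 86.7% in ESC ΔZF1 and 93.2% in ESC noXL, and in NPCs these shares were 76.2%, 91.8% and 95.3%. Up to 8 neighbouring sites formed 1 cluster in ESC WT and up to 3 in either noXL list.

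Along the 3′ UTR, sites were most frequent after the stop codon and rarest at the transcript end in all 6 lists. The median distance to the stop codon was 717, 787 and 814 nt in the WT, ΔZF1 and noXL lists of ESCs, and 696, 770 and 866 nt in those of NPCs. The first 100 nt held 9.81% (9.59 to 10.0) of ESC WT sites, and 8.77% and 8.97% of sites for ΔZF1 and noXL. The NPC values in this order were 10.2%, 9.29% and 8.96%. All 6 lists had between 1.17 and 1.45 times the number that an even spread along each UTR would give, and the noXL lists had the highest ratio in each cell type.

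The last 100 nt told the lists apart more. They held 5.31% (5.15 to 5.48) of ESC WT sites, 3.78% (3.58 to 3.99) for ΔZF1 and 2.16% (1.97 to 2.37) for noXL. In NPCs the order of WT and ΔZF1 was the opposite, with 3.16% (2.98 to 3.34) in WT, 3.77% (3.52 to 4.02) in ΔZF1 and 1.76% (1.56 to 1.99) in noXL. Against an even spread the last 100 nt held 0.634, 0.515 and 0.318 times as many sites in ESC WT, ΔZF1 and noXL, and 0.398, 0.503 and 0.284 times in NPCs. In ESCs most of the difference lay 60 to 99 nt before the end, with 3.82% of WT, 2.72% of ΔZF1 and 1.25% of noXL sites, and there the NPC lists had 2.36%, 2.54% and 0.888%. In NPCs WT and ΔZF1 differed more in the last 60 nt (distances 0 to 59), with 0.795% (0.708 to 0.893) and 1.23% (1.09 to 1.38). There NPC noXL had 0.874% (0.733 to 1.04), slightly above WT. In the last 50 nt NPC WT minus noXL was -0.142 points (-0.307 to 0.00488).

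The size of the NPC difference depended on the score minimum. WT minus ΔZF1 in the last 100 nt was -0.61 percentage points (-0.921 to -0.305) over all NPC sites. It was -0.0361 (-0.459 to 0.383) when only sites at or above the median score of all 3′ UTR sites were used. In ESCs it was 1.53 points (1.26 to 1.80) over all sites and kept its direction under every alternative. In the last 50 nt, though, the ESC difference was 0.151 points (0.0317 to 0.263). UTR lengths also differed between lists, since the median UTR around a site was 2033 nt in ESC WT and 2554 nt in NPC noXL.

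**Figure D3:**
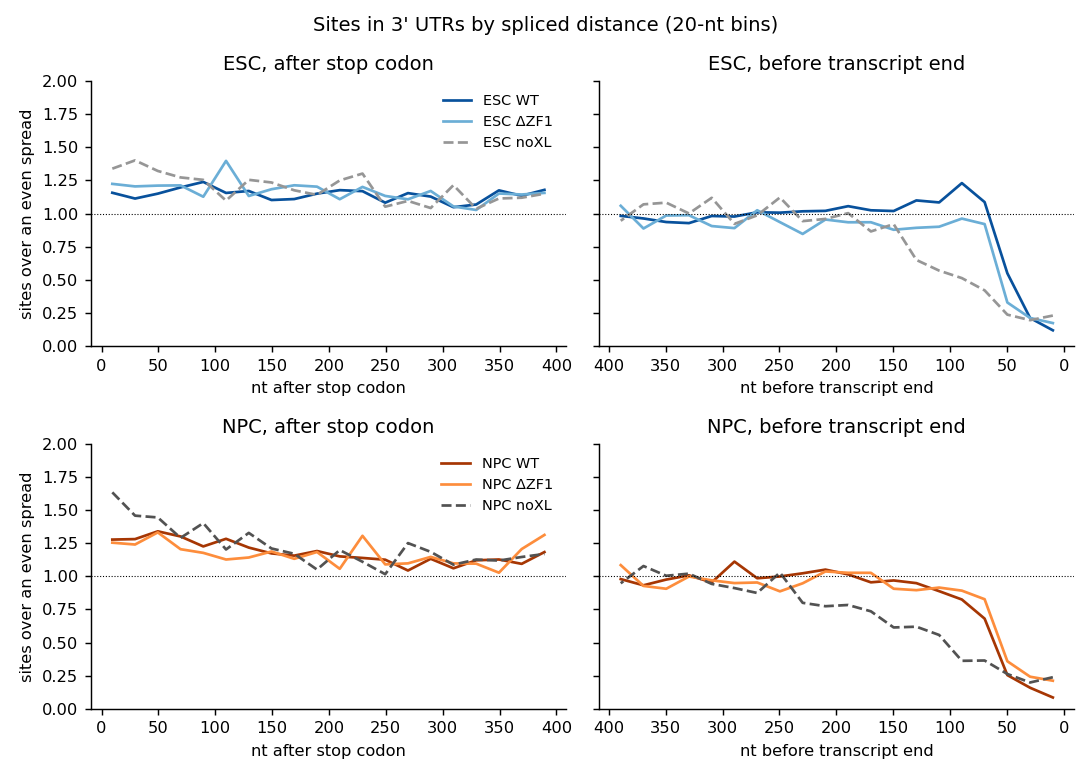
Number of 3′ UTR sites over the number expected from an even spread along each UTR, in 20-nt bins of spliced distance after the stop codon (left) and before the transcript end (right), with ESC lists above, NPC lists below, UV lists solid and noXL dashed. All lists lie lowest close to the end, and noXL lists lie below UV lists from 60 to 99 nt before the end.

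Uridine was the called base at 79.0% (77.6 to 80.3) of end-proximal sites in ESC WT, above the 69.1% (68.0 to 70.2) of stop-proximal sites, and at 79.1% and 71.7% in NPC WT.

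The score is the value PureCLIP gave a site, not scaled to depth, so it was compared only by rank within a list. The median 3′ UTR site ranked at 49.0%, 45.7% and 45.9% of the WT, ΔZF1 and noXL lists of ESCs and at 47.3%, 48.2% and 45.2% of those of NPCs, where 50% is the middle of the whole list. 3′ UTR sites scored somewhat below the middle in all 6 lists. From the lowest to the highest 10% of 3′ UTR scores, the uridine share went from 63.1% to 77.7% in ESC WT and from 66.2% to 82.1% in NPC WT. In the noXL lists it was 32.2% and 29.7% (ESC) and 31.5% and 28.5% (NPC) at these ends.

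Few positions were called again in another list. Of the 181685 positions, 94.2% were in 1 list. Within 5 nt, 20.8% (20.4 to 21.3) of ESC ΔZF1 sites had an ESC WT site and 11.8% (11.6 to 12.1) of ESC WT sites an ESC ΔZF1 site. In NPCs these shares were 13.2% (12.7 to 13.6) and 9.68% (9.38 to 9.99). Between the WT lists the shares were 26.7% (26.3 to 27.2) of NPC WT sites with an ESC WT site and 15.5% of ESC WT sites with an NPC WT site. These shares also depend on how many sites the other list holds. Only 5.10% of ESC WT and 4.15% of NPC WT sites lay within 5 nt of a noXL site of their cell type. Shares in coding sequence were higher for each of these pairs, for example 26.4% for ESC ΔZF1 near ESC WT.

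Sites were spread over many genes, with 6648, 5593 and 4647 genes in the WT, ΔZF1 and noXL lists of ESCs and 5918, 5027 and 4064 in those of NPCs. The 10 genes with most sites held 1.44% to 2.40% of a list, and 50% of the ESC WT sites lay in 1138 genes. Genes with long UTRs led every list. Across the 6648 genes of ESC WT, Spearman's rho between UTR length and number of sites was 0.55, and genes are not independent replicates.

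Tmem245, a membrane protein gene (chr4:56866923-56947437, minus strand, mm10), was among the 5 leading genes of all 6 lists. Its 13324-nt UTR carried 142 ESC WT sites, 63 with ΔZF1 and 65 without UV, and the NPC counts in this order were 75, 48 and 39. The scaled log2 ratio of ΔZF1 over WT, relative to all 3′ UTR sites of each list, was -0.07 in ESCs and 0.04 in NPCs. Its density was 10.7 sites per kb of UTR in ESC WT. Its highest-scoring ESC WT site was also called in NPC WT and NPC ΔZF1.
Tmem245, chr4:56869846-56869870, minus strand: auuugaggaauuUuuauagggucau

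Serbp1, which encodes an mRNA-binding protein, had 129, 64 and 52 sites in ESC WT, ΔZF1 and noXL and 39, 45 and 32 in the NPC lists. Ago2, the slicer Argonaute that microRNAs guide to 3′ UTRs, had 114, 55 and 42, then 63, 36 and 29. Igsf9b, an adhesion protein of inhibitory synapses, had 112, 73 and 49, then 56, 23 and 29. These leading genes also had many noXL sites. The scaled log2 ratio of WT over noXL in ESCs and then NPCs was -0.67 and -0.42 for Tmem245, -0.49 and -1.07 for Serbp1, -0.37 and -0.25 for Ago2, and -0.61 and -0.42 for Igsf9b, against medians of -0.26 and -0.30 over all genes compared.

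D10Wsu102e must be read apart, because its annotated UTR is 122583 nt long. It had 162, 50 and 76 sites in the ESC lists and 33, 78 and 27 in the NPC lists, at 1.32 sites per kb in ESC WT. Its scaled log2 ratio of ΔZF1 over WT was -0.58 in ESCs and 1.89 (1.33 to 2.50) in NPCs.

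**Figure D4:**
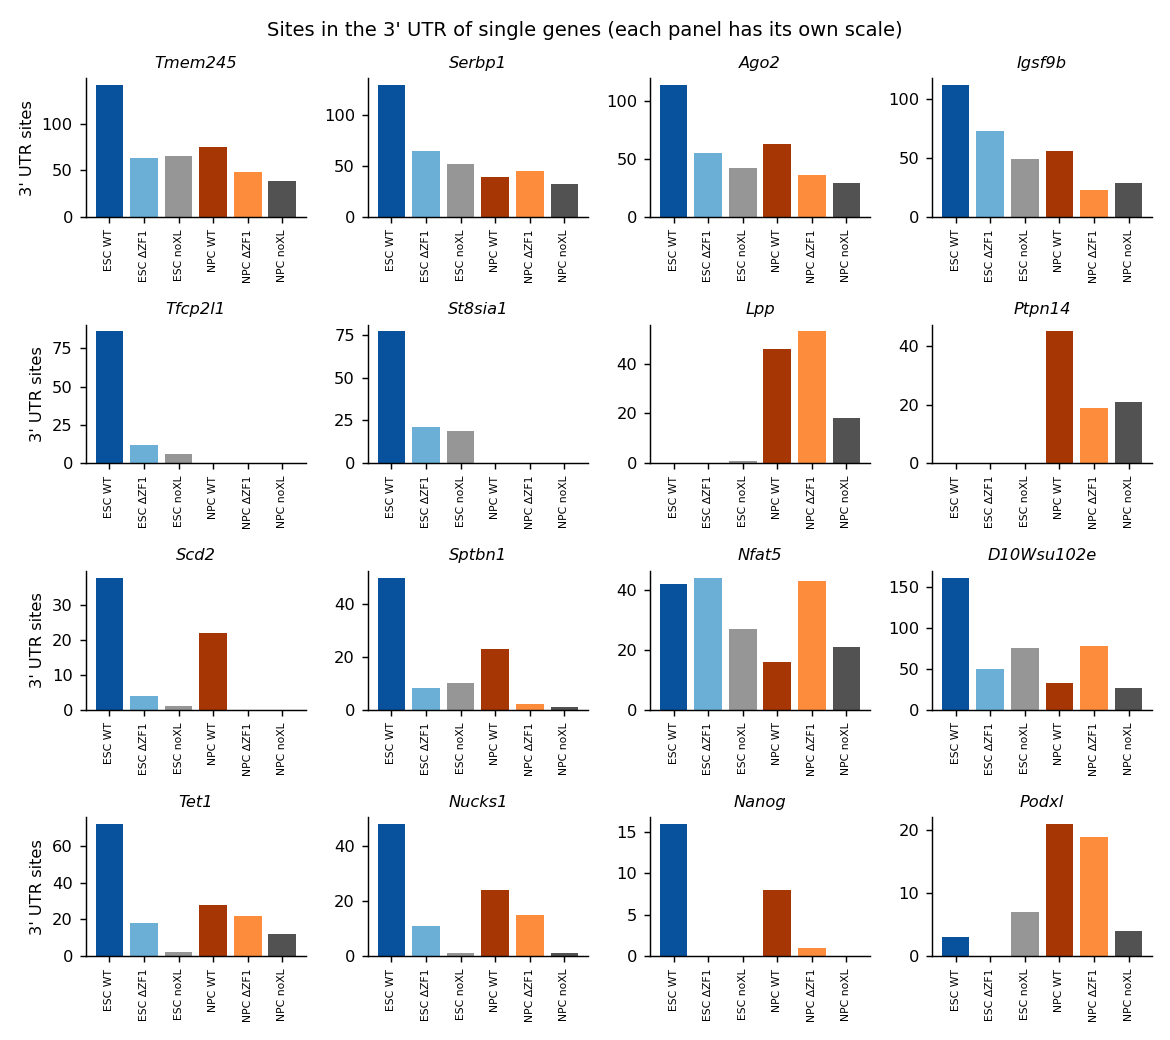
Number of 3′ UTR sites of 16 genes in the 6 lists, 1 panel per gene with its own vertical scale. Tmem245 has sites in every list (39 to 142), Tfcp2l1 and St8sia1 in ESC lists alone, Ptpn14 in NPC lists alone, and Scd2 has 38 and 22 in WT against 4 and 0 in ΔZF1.

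For ΔZF1 against WT in ESCs, 1645 genes had at least 20 sites in both lists together. After scaling, 127 were past a log2 ratio of 1 (7.72% of genes compared) and 95 past -1 (5.78%), with a median of 0.09. Over all sites within genes these shares were 6.84% and 5.45%. In NPCs 747 genes were compared, with 48 higher (6.43%) and 45 lower (6.02%), a median of 0.14, and 5.76% and 7.36% over all genic sites. Without scaling, 92.8% of genes in ESCs and 81.7% in NPCs had a log2 ratio below 0. Of the genes past -1 in ESCs 17.9% were on chromosome 11, which had 10.5% of the genes compared.

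Scd2, a stearoyl-CoA desaturase of fatty acid synthesis, was among the genes that lost most. Its 3664-nt UTR on chromosome 19 carried 38, 4 and 1 sites in the WT, ΔZF1 and noXL lists of ESCs, and 22, 0 and 0 in those of NPCs. In both cell types WT stood above ΔZF1 and noXL. The scaled log2 ratio of ΔZF1 over WT in ESCs was -1.87 (-3.58 to -0.73), and in NPCs the unscaled count was at least 7.33-fold lower against a floor of 3 sites. Elsewhere in the gene WT and ΔZF1 counts were 56 and 35 for ESCs and 69 and 30 for NPCs, a smaller fold difference than in the UTR. Of its UTR sites in ESC WT 86.8% were uridines. Its highest-scoring site, though, was a cytidine.
Scd2, chr19:44305466-44305490, plus strand: ccaagguauuugCugagcuguggcc

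Clcn3, a chloride-proton exchanger, went from 31 ESC WT sites to 2 with ΔZF1, with a scaled log2 ratio of -2.32 (-4.78 to -0.94). It had 10 sites in ESC noXL, above ΔZF1, and elsewhere in the gene there were 137 WT and 34 ΔZF1 sites in ESCs. Nr6a1, the germ cell nuclear factor, went from 33 to 3 in ESCs but had 24 and 22 in NPC WT and ΔZF1. In NPCs the lowest ratios among genes with at least 30 sites were those of Rlim, a ubiquitin ligase of X inactivation (29 in WT and 5 in ΔZF1, log2 -1.65), Abl2, a tyrosine kinase (32 and 6, -1.56), and Ppp2ca, the catalytic subunit of protein phosphatase 2A (27 and 5, -1.55). Rlim also had 56 and 15 sites in ESC WT and ΔZF1, whereas Abl2 had 58 and 42. In NPC noXL, Rlim, Abl2 and Ppp2ca had 0, 15 and 6 sites, so Abl2 and Ppp2ca had more there than in NPC ΔZF1. Nr6a1 had 4 sites in ESC noXL and 22 in NPC noXL.

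Higher ratios in ΔZF1 were found for Klf13, a Krüppel-like transcription factor, with 11 sites for WT and 26 for ΔZF1 in ESCs (log2 2.26, 1.34 to 3.33), for Sft2d2 with 15 and 27, and for Slc9a8, a sodium-proton exchanger, with 11 and 20. In NPCs they were found for Nfat5, the osmotic stress transcription factor, with 16 sites in WT and 43 in ΔZF1 (log2 2.05, 1.28 to 2.92), and Bag4, an Hsp70 cochaperone, with 10 and 22 (log2 1.74). Nfat5 also had 27 and 21 sites in ESC and NPC noXL. Bag4 had 16 in NPC noXL, above its WT count, and Klf13, Sft2d2 and Slc9a8 had 8, 5 and 8 in ESC noXL. Elsewhere in Nfat5 the unscaled counts for WT and ΔZF1 were 111 and 61 in ESCs and 60 and 27 in NPCs, where the whole lists differed 1.95-fold and 1.51-fold.

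Of 669 genes compared in both cell types, 30 were lower in ESCs and 40 in NPCs, and 6 in both, 20.0% of the first and 15.0% of the second. These 6, named after their values were seen, were Atp13a3, Elovl4, Scd2, Smcr8, Sptbn1 and Tmem170. Sptbn1, a spectrin gene on chromosome 11, had 50 and 8 sites in ESC WT and ΔZF1 and 23 and 2 in NPCs. Elovl4, a fatty acid elongase, had 24 and 3, then 17 and 3. Of the 669 genes, 37 were higher in ESCs and 41 in NPCs. The 3 genes higher in both were Cdkn2aipnl, Il17rd and Nfat5, 8.11% of the first and 7.32% of the second. Whether 6 or 3 genes in both exceed what these counts among 669 would give was not tested, so the overlaps are not read as results. Across the 669 genes Spearman's rho between the ESC and NPC ratios was 0.11.

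**Figure D5:**
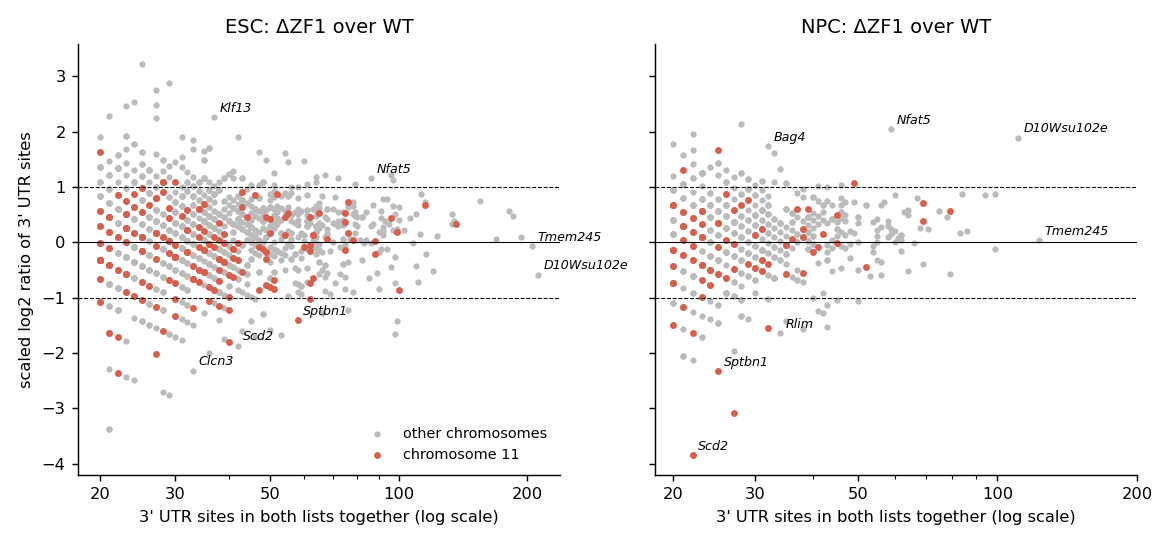
Scaled log2 ratio of ΔZF1 over WT 3′ UTR sites against the number of sites in both lists (log scale), 1 point per gene with at least 20 sites, for ESCs (1645 genes, left) and NPCs (747 genes, right), with chromosome 11 in red and dashed lines at 1 and -1. Ratios spread most at low numbers of sites, and Scd2 and Sptbn1 lie below -1 in both panels.

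Between cell types, NPC WT had 0.517 times (0.511 to 0.524) as many 3′ UTR sites as ESC WT. Of 1726 genes compared, 112 were higher in NPC WT after scaling (6.49%) and 148 lower (8.57%), against 11.5% and 10.4% over all genic sites. Without scaling 31 were higher and 768 lower. Of the 148 lower genes 66.2% were also lower over all genic sites, and of the 112 higher genes 46.4% were higher. Lists of merged libraries do not tell fewer cells with an RNA from less of that RNA per cell.

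The bounds on fold that follow are unscaled counts against a floor of 3 sites, and must be read beside the 0.517-fold number of sites in NPC WT, which lowers them for genes of the ESC lists and raises them for genes of the NPC lists. Tfcp2l1, a transcription factor of naive pluripotency, had 86, 12 and 6 sites in the WT, ΔZF1 and noXL lists of ESCs and none in any NPC list, at least 28.7-fold lower in NPC WT. St8sia1, a ganglioside sialyltransferase, had 77, 21 and 19 in the ESC lists and none in NPCs, at least 25.7-fold lower. Lifr, the receptor subunit for leukaemia inhibitory factor, had 59, 39 and 26 and none in NPCs, at least 19.7-fold lower. On the NPC side, Lpp, a focal adhesion LIM protein, had 46, 53 and 18 sites in NPC WT, ΔZF1 and noXL against 0, 0 and 1 in the ESC lists, at least 15.3-fold higher in NPC WT. Ptpn14, a phosphatase of the Hippo pathway, had 45, 19 and 21 against none in ESCs, at least 15.0-fold higher. All these genes had sites in the noXL list of the cell type in which WT had them. The highest-scoring WT sites of Tfcp2l1 and Lpp, both on uridines, were as follows.
Tfcp2l1, chr1:118683666-118683690, plus strand: cucauuuacauuUccaagggcuauc
Lpp, chr16:24985926-24985950, plus strand: ugggcugauuuuUguaaucauaucu

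Markers matched the labels of the cells in part. The 11 naive pluripotency genes had 220 3′ UTR sites with ESC WT but 10 with NPC WT, with 4 of 5 compared genes lower in NPC WT and a median log2 ratio of -3.51, against 0.04 and 8.57% lower over all genes compared. Esrrb (34 sites), Klf4 (21), Tbx3 (21) and Zfp42 (15) had ESC WT sites and none in any NPC list, but Nanog kept 8 in NPC WT beside 16 in ESC WT. Of the 12 early neural genes, 7 had a site, with 12 sites for the list in ESC WT and 25 in NPC WT. Sox11 and Sox4 had 12 and 9 of the NPC WT sites and none in the ESC lists, so all 12 ESC WT sites were in other members. In NPCs the early neural sites were most numerous without UV, with 43, against 34 for ΔZF1 and 25 for WT, and Sox11 and Sox4 were both past -1 for WT over noXL (log2 -1.90 and -1.93). Sox4 was higher in NPC ΔZF1 than WT, with 14 and 9 sites (log2 1.26). The 6 endoderm and 6 mesoderm genes had no 3′ UTR site in any list.

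Some naive pluripotency genes also differed between ESC WT and ΔZF1. The 220 WT sites stood against 54 with ΔZF1 and 34 without UV. Of 5 compared, Tfcp2l1 (log2 -1.65) and Klf4 (21 and 1 sites, -2.37) were lower in ΔZF1 and Klf5 (13 and 17 sites, 1.46) was higher, with a median of -0.56 against 0.09 over all genes, of which 5.78% were lower and 7.72% higher. Nanog had 16 sites in ESC WT, all on uridines, and none in ESC ΔZF1 or ESC noXL, at least 5.33-fold lower in each by unscaled count, where the whole 3′ UTR lists differed 2.13-fold and 3.45-fold, while elsewhere in the gene it had 69 WT and 39 ΔZF1 sites.
Nanog, chr6:122714289-122714313, plus strand: gaggggugagguUuaaaaguauaua

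Against noXL, 1375 genes were compared in ESCs, of which 81 were higher (5.89%) and 97 lower (7.05%) in WT, with a median scaled log2 ratio of -0.26 and with 8.12% higher and 6.6% lower over all genic sites. In NPCs 42 of 581 were higher (7.23%) and 68 lower (11.7%), with a median of -0.30. Over all genic sites 10.5% were higher and 6.51% lower in NPCs. These counts are relative to the list totals. Without scaling, 1194 genes were higher and 0 lower in ESCs (median 1.53), and 315 and 2 in NPCs (median 1.04). In ESCs the 3 leading ratios, taken from genes with 30 or more sites, were those of Nucks1, a nuclear DNA-binding protein (48 sites in WT and 1 in noXL, log2 2.83), Tet1, a 5-methylcytosine dioxygenase (72 and 2, log2 2.82), and Ssr3, a translocon-associated protein (41 and 1, log2 2.60). In NPCs they were those of Cbx5, which encodes heterochromatin protein HP1 alpha (47 and 3, log2 2.24), Ddx17, an RNA helicase (34 and 2, log2 2.20), and Slc6a6, the taurine transporter (28 and 2, log2 1.93).

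Their ΔZF1 counts varied. Nucks1 had 11 sites in ESC ΔZF1 and 15 in NPC ΔZF1, and Tet1 had 18 and 22, above their noXL counts in both cell types. Ssr3 had 5 and 1, against 1 and 6 without UV. Tet1's highest-scoring ESC WT site lay in a run of UG repeats.
Tet1, chr10:62806310-62806334, minus strand: ugugugugugugUguuuaaaacagg

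Lowest against noXL, among genes with 30 or more sites in both lists together, were Gm2381 (18 sites in each of ESC WT and ESC noXL, log2 -1.79), Ern1 and Ing5 in ESCs, and Sox11 (12 and 18, log2 -1.90), Igf1r (13 and 19, log2 -1.86) and Nfat5 (16 and 21, log2 -1.72) in NPCs. In Sox11, Igf1r and Nfat5 noXL had more sites than WT.

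Genes that encode RNA-binding proteins carried sites in their own 3′ UTRs. The 20 hnRNP genes, all with a site, had 394, 135 and 83 sites in the WT, ΔZF1 and noXL lists of ESCs and 192, 104 and 57 in NPCs. None of 9 compared in ESCs or 4 in NPCs passed a ΔZF1 limit, with medians of -0.20 and 0.15. Over all genes compared 7.72% were higher and 5.78% lower in ESCs and 6.43% and 6.02% in NPCs, so a count of 0 among so few genes, here and in the lists that follow, does not set them apart. Their summed sites were 0.568% of ESC WT, 0.416% of ESC ΔZF1 and 0.414% of ESC noXL, and 0.536%, 0.463% and 0.405% of the NPC lists. The 12 SR protein genes had 179, 62 and 45 and then 104, 49 and 39 sites, 0.258%, 0.191% and 0.224% of the ESC lists and 0.290%, 0.218% and 0.277% of the NPC lists, and none of 5 and 3 passed. The 18 genes of cleavage and polyadenylation had 278, 123 and 80 and then 145, 85 and 68, and none of 7 and 4 passed. The 11 CTCF and cohesin genes had 157, 65 and 46 and then 87, 43 and 34, and none of 6 and 3 passed. Ctcf itself had 13, 3 and 5 sites in ESC WT, ΔZF1 and noXL and 6, 5 and 4 in the NPC lists, too few to compare.

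The 21 genes for proteins that act through 3′ UTRs had 572, 299 and 219 and then 302, 197 and 115 sites. Of 14 compared in ESCs, 1 was past each limit, and the higher in ΔZF1 was Lin28a, the let-7 regulator (14 and 21 sites, log2 1.65). Of 10 compared in NPCs, Msi2, a Musashi protein, was higher (21 and 28, log2 1.07) and Tnrc6b, an Argonaute partner, lower (22 and 6, log2 -1.04). The median of the list was 0.05 in ESCs and 0.04 in NPCs. Over all genes compared 7.72% were higher and 5.78% lower in ESCs, and 6.43% and 6.02% in NPCs. A count of 1 among so few genes does not set this list apart.

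Cytoskeletal and histone mRNAs had few sites in the ΔZF1 and noXL lists, and their shares of the lists were not tested against each other. The 14 genes of the actin and tubulin cytoskeleton had 63, 10 and 3 sites in ESC WT, ΔZF1 and noXL, and 31, 6 and 6 in NPCs, too few per gene for ΔZF1 to be compared with WT, and were 0.0909%, 0.0308% and 0.0149% of the ESC lists and 0.0865%, 0.0267% and 0.0426% of the NPC lists. Actb had 11, 1 and 0 and then 10, 0 and 0 sites in a UTR of 683 nt, all on uridines. Histone mRNAs, which end in a stem-loop and not in a poly(A) tail, had 74, 14 and 6 and then 53, 25 and 10 sites, 0.107%, 0.0431% and 0.0299% of the ESC lists and 0.148%, 0.111% and 0.0710% of the NPC lists. The 83 cytosolic ribosomal protein genes had 308, 161 and 84 and then 153, 103 and 48, with a median log2 ratio of ΔZF1 over WT of 0.51 over 5 compared in ESCs and 0.21 over 4 in NPCs and no gene past a limit.

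Podxl and Grb10, the RNAs the study followed, had more 3′ UTR sites in NPC WT than in ESC WT. Podxl, the sialomucin podocalyxin (chr6:31519488-31563981, minus strand), had 3, 0 and 7 sites in the WT, ΔZF1 and noXL lists of ESCs and 21, 19 and 4 in those of NPCs. NPC WT and ΔZF1 were both above noXL, and the scaled log2 ratio of ΔZF1 over WT was 0.54 (-0.35 to 1.41), an interval that spans 0. Elsewhere in Podxl there were 25 WT and 13 ΔZF1 sites in NPCs.
Podxl, chr6:31520521-31520545, minus strand: uugccuauuuuuUggacaauacacu

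Grb10, an imprinted adaptor of growth factor receptors (chr11:11930508-12038683, minus strand), had 15, 3 and 7 sites in the ESC lists and 18, 12 and 2 in the NPC lists. The scaled log2 ratio of ΔZF1 over WT in NPCs was 0.13 (-0.94 to 1.12). Its UTR and the rest of the gene differed by cell type, because elsewhere in Grb10 there were no sites in ESC WT or ESC ΔZF1 and 2 in ESC noXL, but 261, 120 and 141 in NPC WT, ΔZF1 and noXL.
Grb10, chr11:11933229-11933253, minus strand: agccauuuaaaaUugggggagggaa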

How the data were processed

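CTCF iCLIP2 sites from 23 libraries in 6 groups were analysed. Per the study's methods, the authors used Flexbar for trimming, STAR for alignment to mm10 and UMI-tools for duplicate removal, then merged the libraries of a group and called crosslinked nucleotides with PureCLIP, whose score is the deposited value of each site. Tool versions are not given in the sources used here, and read depth is unknown.

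Sites were placed on GENCODE M21 transcripts (GRCm38, the build of mm10), 1 transcript per site, with distances counted along the spliced mRNA. 1953 sites on other sequences were left out, and 0.404% of members lay in UTRs of more than 1 gene. Bases were read from the RefSeq GRCm38 genome. Shares have Wilson, and differences Newcombe 95% intervals, and ratio intervals come from the Wilson interval of one count's share of both. Gene ratios used a pseudocount of 1, at least 20 sites in both lists together, scaling to the 3′ UTR sites of each list and limits of 1 and -1, and a count of 3 per list was the floor for folds. Named were the 5 leading genes of each list, the 3 highest and 3 lowest ratios of each comparison among genes with at least 30 sites, list members with at least 20 sites over the 6 lists, and Podxl, Grb10 and Ctcf. The members, gene lists and rules were chosen with earlier results of these data known. Alternatives changed the score minimum, merging, transcripts, distances, tolerance, scaling and gene minimums. A few positions and genes that these rules select are not reported here. Calculations were tested on simulated data. Python 3.11.15 was used with pysam 0.24.0, pandas 2.3.3, matplotlib 3.10.9, numpy 2.4.6 and scipy 1.17.1.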

Additional observations from a re-analysis of the deposited data

Results flagged for a closer look

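The share of 3′ UTR sites in the last 100 nt differed between WT and ΔZF1 in opposite directions in the cell types, by 1.53 percentage points (1.26 to 1.80) in ESCs and by -0.61 (-0.921 to -0.305) in NPCs. The 2 differences were 2.14 points apart (1.74 to 2.55, counting error only), and since each group is 1 list this could not be tested against replicates. In NPCs it was -0.0361 points at the higher score minimum.

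Of 669 genes compared in both cell types, 7 were past the limits in opposite directions, and none of these differences was tested. In ESCs 30 of the 669 were lower and 37 higher, and in NPCs 40 and 41. Whether 7 exceeds what these counts would give was not tested. The scaled log2 ratio of ΔZF1 over WT in ESCs and then NPCs was -1.28 and 1.09 for Bmpr2, a BMP receptor (56 and 10 sites with WT and ΔZF1 in ESCs, and 14 and 19 in NPCs, the order used below). It was -1.10 and 1.58 for Csnk1g1, a casein kinase (31, 6, 7 and 14 sites). It was -1.13 and 1.16 for Fgf4, a growth factor made by ESCs (27, 5, 9 and 13 sites). It was -1.23 and 2.13 for Strbp, a double-stranded RNA-binding protein (19, 3, 7 and 21 sites). The opposite order was found for Extl3, a heparan sulfate glycosyltransferase (1.48 and -1.72, with 12, 16, 20 and 3 sites). Peg3, an imprinted zinc finger gene, had 1.63 and -1.32 (19, 28, 23 and 5 sites), and Reep1 had 1.17 and -1.25 (17, 18, 18 and 4 sites).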

How the results depend on the processing

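No paired analysis was possible because each group is a single merged list. Leaving out a library was not possible for the same reason. All 20 values with basic transcripts, all 10 with the longest 3′ UTR, all 6 gene counts scaled to the genic total and all 6 with a pseudocount of 0.5 stayed within the interval of the reported value or within 1.5 times of it. Of 153 values under alternatives, 70 did so and 1 changed direction. The cause of the others was not tested, except that a higher gene minimum or score minimum leaves fewer genes and sites and a wider tolerance can only add shared sites. The score is not scaled to depth, so a common minimum keeps different shares of the lists.

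At or above the median score, the number ratio was 2.21 for ESC WT over ΔZF1, 1.16 for NPC WT over ΔZF1, 2.52 for ESC WT over noXL, 2.02 for NPC WT over noXL and 0.484 for NPC WT over ESC WT. The uridine differences in the same order were 14.9, 11.4, 44.3, 48.7 and 3.59 points. The stop-proximal differences of the first 4 were 1.72, 1.82, 1.70 and 2.35 points. The end-proximal differences were -0.0361 for NPC WT minus ΔZF1, 3.69 for ESC WT minus noXL and 1.86 for NPC WT minus noXL. The shared shares were 16.0% for ESC ΔZF1 near WT, 7.98% for NPC ΔZF1 near WT, 4.26% for ESC WT near noXL, 3.28% for NPC WT near noXL and 23.7% for NPC WT near ESC WT. Genes past the limits were 38 higher and 44 lower for ESC ΔZF1 over WT, 15 and 11 for NPC ΔZF1 over WT, and 28 and 56 for NPC WT over ESC WT.

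With the best site of each cluster, the number ratios were 1.91, 1.45, 2.97, 2.27 and 0.542, the uridine differences 11.7 (ESC WT minus ΔZF1) and 38.7 points (ESC WT minus noXL), and the end-proximal differences 1.22 (ESC WT minus ΔZF1), 2.71 (ESC WT minus noXL) and -1.86 points (NPC WT minus ESC WT). At a distance of 50 nt, the stop-proximal differences were 0.332 and 0.352 (WT minus ΔZF1, ESC and NPC) and 0.115 and 0.498 points (WT minus noXL). The end-proximal ones were 0.151 (ESC WT minus ΔZF1), 0.135 (ESC WT minus noXL) and -0.344 (NPC WT minus ESC WT), and NPC WT minus noXL turned to -0.142 points.

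Shared shares at the same position only were 8.34%, 5.12%, 1.15%, 1.07% and 12.1% in the order above, and 61.5%, 42.5%, 25.4%, 18.7% and 61.2% within 50 nt. Gene counts (higher and lower) for ESC ΔZF1, NPC ΔZF1 and NPC WT over ESC WT were 310 and 339, 188 and 203, and 351 and 433 with a minimum of 10 sites. They were 14 and 8, 2 and 1, and 5 and 21 with a minimum of 50. Without scaling they were 9 and 827, 8 and 190, and 31 and 768.

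Uridine sites alone had median score ranks of 52.0% (ESC WT), 47.1% (ESC ΔZF1), 44.6% (ESC noXL), 50.5% (NPC WT) and 49.2% (NPC ΔZF1). In alternatives added after seeing the data, uridine sites alone gave end-proximal differences of 3.61 (ESC WT minus noXL) and -2.52 points (NPC WT minus ESC WT). Without chromosome 11 the WT over ΔZF1 ratio was 2.09 in ESCs and 1.55 in NPCs, and the gene counts stayed within 1.5 times.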
